A study of Mus musculus with 6 samples.

Results

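The transcription factors described here are 7 genes that mark or direct the making of olfactory bulb interneurons: Dlx1, Dlx2, Dlx5, Sp8, Pax6, Gsx1 and Meis2. They were found on the arrays by gene name, older names included (Gsh1 for Gsx1), or by an accession that maps to the symbol (Meis2, named Mrg1 in the files). They are 7 of 28786 gene names, read by 10 of 41174 probes and 19 of 43379 gene spots. All 7 had a probe bright enough to be tested, as did 18062 genes in total.

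Neural stem cells were grown from the subventricular zone of mice aged between postnatal day 14 and 21. Knockout (KO) cells are Dnmt3a-null and lack a DNA methyltransferase that adds new methyl groups to cytosine; wild-type (WT) cells carry the gene. How the gene was deleted, the strain, and whether the replicate cultures came from separate animals are not given in the sources used here. Differentiating cells (2 arrays) had 2 days of replating in mitogen and then 3 days without it, and proliferating cells (4 arrays) were kept in 10 ng/ml FGF-2 and 10 ng/ml EGF. Each array held KO RNA in one dye and WT RNA in the other, with KO in Cy5 on differentiating replicate 2 and proliferating replicates 1 and 3 and in Cy3 on the rest. Values are log2 signals after background correction and normalization, or log2 ratios of KO over WT, and a gene passed where limma's p-value, adjusted by the Benjamini-Hochberg method over all genes tested, was under 0.05.

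The subventricular zone goes on making interneurons for the olfactory bulb after birth. Stem cells there pass through dividing progenitors to migrating neuroblasts, which mature into granule and periglomerular interneurons, most of them GABAergic. Gsx1 is a homeobox gene of early ventral telencephalic progenitors, the Dlx genes drive GABAergic fate and migration, and Sp8, Pax6 and Meis2 act in neuroblasts and in classes of periglomerular cells. Earlier work on Dnmt3a in such cultures examined Dlx2 and Sp8, which makes their direction no independent evidence.

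Dnmt3a itself had mean log2 ratios of -1.38 ± 0.14 in differentiating cells (SD, n = 2; adjusted p = 0.0154 by limma) and -0.96 ± 0.22 in proliferating cells (SD, n = 4; adjusted p = 0.0219). Which of its probes lie in the deleted stretch is not known here. Sox2 and Nes, which mark neural stem cells, were well above background in both genotypes on all 6 arrays. Per channel, 52.3% to 59.1% of the gene spots stood well above background. The 2 differentiating arrays shared 1 slide and scan and the 4 proliferating arrays another, so that a difference between the conditions and one between slides cannot be told apart; KO and WT were compared within each array. On proliferating replicates 3 and 4 sex-linked RNAs were unequal between the channels. Xist, the RNA of the inactive X, had log2 signals of 11.27 and 11.06 in KO and 12.69 and 13.34 in WT RNA there, and the Y-linked gene Ddx3y had 8.46 and 8.83 in KO RNA but was not well above background in WT RNA. On the other 4 arrays Xist was not well above background in either channel, and Ddx3y ratios lay between -0.12 and 0.27.

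DNMT3A acts on cytosines of CG dinucleotides, and the 4 genes whose KO over WT ratio was negative on every array (Dlx1, Dlx2, Sp8 and Pax6, described below) differ in how many their promoters hold. The 250 bases before the first annotated start of each are printed here to show this, from RefSeq on GRCm38.p6, 5′ to 3′ on the gene's strand, with CG in capitals. They lie at chr2:71529195-71529444 on the plus strand (Dlx1), chr2:71546755-71547004 on the minus strand (Dlx2), chr12:118846079-118846328 on the plus strand (Sp8) and chr2:105668646-105668895 on the plus strand (Pax6).
Dlx1: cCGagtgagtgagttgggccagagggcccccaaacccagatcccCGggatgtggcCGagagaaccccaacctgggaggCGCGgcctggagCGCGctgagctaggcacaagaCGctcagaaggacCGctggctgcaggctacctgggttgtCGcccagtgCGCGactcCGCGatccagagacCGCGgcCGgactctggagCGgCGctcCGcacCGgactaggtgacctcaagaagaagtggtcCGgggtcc
Dlx2: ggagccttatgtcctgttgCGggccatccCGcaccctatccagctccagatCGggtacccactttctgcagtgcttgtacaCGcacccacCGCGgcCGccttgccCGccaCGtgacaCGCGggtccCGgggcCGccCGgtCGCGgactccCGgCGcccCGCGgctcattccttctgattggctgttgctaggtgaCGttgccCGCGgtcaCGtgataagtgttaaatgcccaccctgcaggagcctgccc
Sp8: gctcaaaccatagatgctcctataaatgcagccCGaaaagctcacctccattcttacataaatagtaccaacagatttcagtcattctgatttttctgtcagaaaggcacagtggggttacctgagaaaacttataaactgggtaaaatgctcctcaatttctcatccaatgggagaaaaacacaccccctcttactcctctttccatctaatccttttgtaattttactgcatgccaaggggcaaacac
Pax6: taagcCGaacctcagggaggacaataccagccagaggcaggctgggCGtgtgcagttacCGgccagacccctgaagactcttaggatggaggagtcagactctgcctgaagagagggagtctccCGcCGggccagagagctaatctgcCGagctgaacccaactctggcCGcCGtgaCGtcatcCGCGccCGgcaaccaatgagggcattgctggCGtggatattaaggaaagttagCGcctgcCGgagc
The Dlx1 window holds 22 CG, the Dlx2 window 24 and the Pax6 window 15, against a median of 6 over 32851 annotated mouse promoters; 14.8%, for Dlx1, and 27.3%, for Pax6, of all promoters hold at least as many, and 3935 of the 32851 do for Dlx2. The Sp8 window holds 1, and 92.1% of promoters hold at least as many. The windows before the other annotated starts of Sp8 hold 32 and 6, and that before the other start of Pax6 holds 15. The Gsx1 window holds 15 and the Meis2 window 7. The arrays measured RNA and not methylation, so these counts describe the sequences only.

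Sp8, a zinc finger factor of late-born calretinin-type periglomerular and granule cells, was the member that passed in both conditions, and it was lower in KO cells. In differentiating cells its log2 signals were 7.02 and 7.95 in KO RNA, against 9.08 and 10.39 in WT RNA. In proliferating cells they were 8.30, 7.82, 6.61 and 6.41 in KO RNA on replicates 1 to 4, against 9.77, 9.89, 8.43 and 7.87 in WT RNA. The WT signal was above the KO signal of its own array on 6 of 6 arrays. KO lay below WT without overlap in differentiating cells, as for 15.1% of all genes, while in proliferating cells KO replicate 1 lay above WT replicate 4. The last KO signal, on proliferating replicate 4, was not well above background.

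Sp8 fell 4.76-fold in differentiating KO cells, with a mean log2 ratio of -2.25 ± 0.28 (SD, n = 2; adjusted p = 0.0147 by limma; 95% interval -2.73 to -1.77). It fell 3.26-fold in proliferating KO cells, with -1.70 ± 0.29 (SD, n = 4; adjusted p = 0.0163; 95% interval -2.04 to -1.36). Of all genes tested 0.902% were called lower in differentiating and 0.338% in proliferating KO cells. Ordered by log2 ratio from the lowest, Sp8 was number 17 of 18062 in differentiating and number 7 in proliferating cells. The calls need most of the arrays: in differentiating cells adjusted p was 0.276 without replicate 1 and 0.253 without replicate 2, and in proliferating cells it was 0.0577 without proliferating replicate 3, 0.0598 without replicate 4 and 0.0835 without either differentiating array, with which the spread is shared. With Agilent's own processed signals, which carry no offset, the log2 ratios were -3.27 and -2.61.

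**Figure D1:**
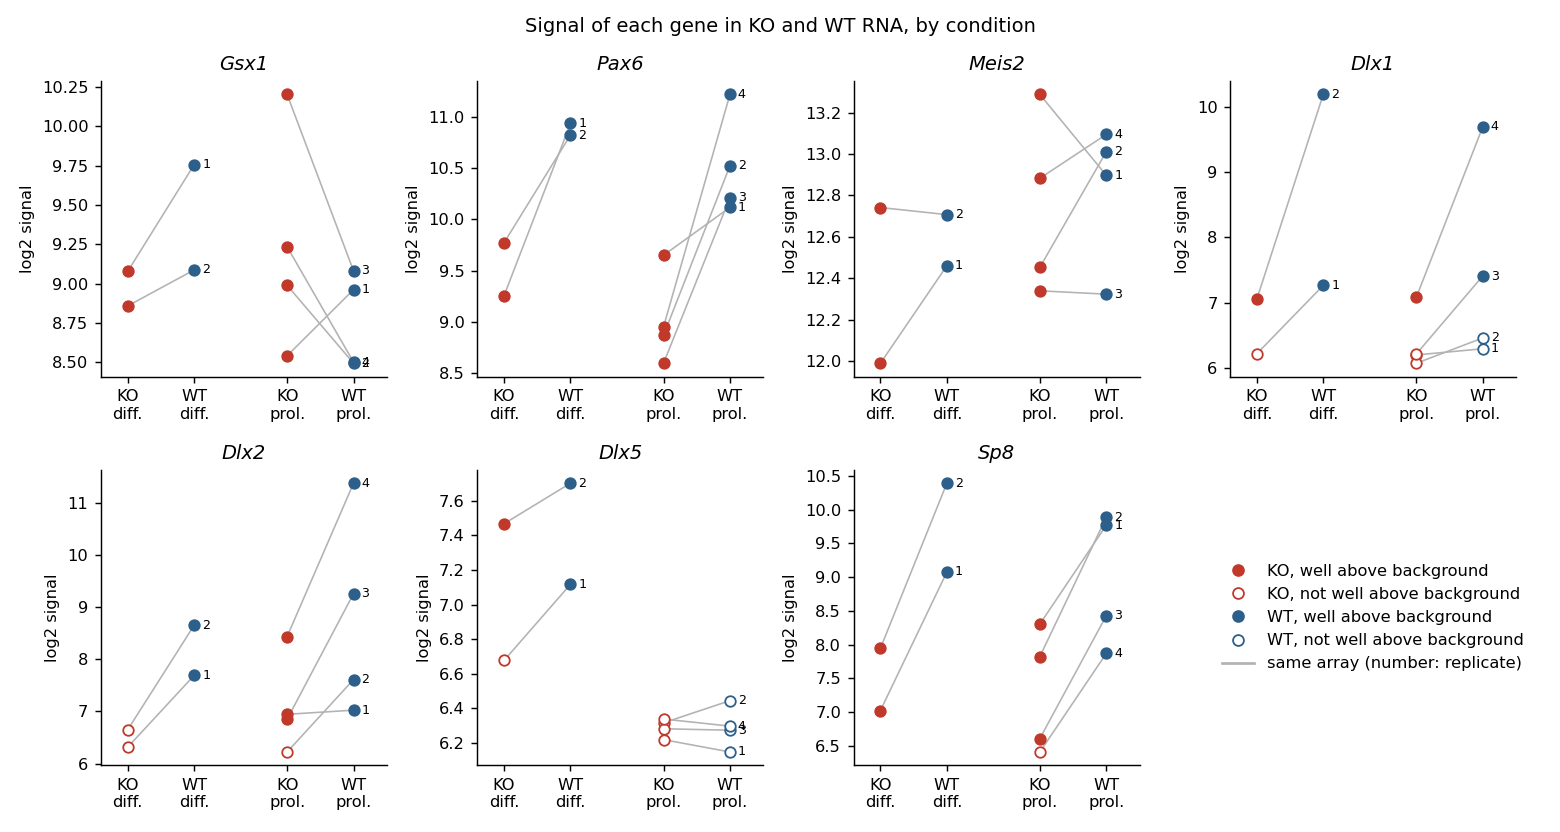
Log2 signal (y axis, a separate range for each gene) of the 7 genes in KO and WT RNA of differentiating and proliferating cells. Each point is 1 channel of 1 array, lines join the channels of an array, numbers are replicates, and hollow points were not well above background; the lines of Sp8, Pax6, Dlx1 and Dlx2 all go up from KO to WT.

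Pax6, a paired-box and homeobox factor of stem cells and of dopaminergic periglomerular neuroblasts, had less signal in KO RNA on every array, and the genotypes did not overlap in either condition. In differentiating cells its log2 signals were 9.26 and 9.77 in KO RNA, against 10.94 and 10.82 in WT RNA. In proliferating cells they were 9.65, 8.87, 8.60 and 8.95 in KO RNA, against 10.12, 10.52, 10.21 and 11.22 in WT RNA. Every KO signal was below every WT signal, with the smallest gap on proliferating replicate 1. KO signals below WT without overlap were seen for 15.1% of genes in differentiating cells and for 0.715% in proliferating cells.

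The mean Pax6 log2 ratio was -1.36 ± 0.44 in differentiating cells (SD, n = 2; adjusted p = 0.0780 by limma) and -1.50 ± 0.75 in proliferating cells (SD, n = 4; adjusted p = 0.0503), so that neither passed. The 95% intervals, -2.09 to -0.64 and -2.01 to -0.98, exclude 0 before adjustment. The proliferating value stands at the threshold: of 18 alternative settings 7 passed, among them adjusted p = 0.0495 with a stricter reading of which probes were bright enough and 0.0350 without proliferating replicate 1.

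Pax6 has 3 probes on chromosome 2 of build mm7, all on the plus strand. The brightest, used above, lies at chr2:105547907-105547966. The 10-spot probe, whose given span is chr2:105546221-105547093, had log2 ratios of -1.02 and -0.72 in differentiating cells and -0.23, -1.05, -1.03 and -1.65 in proliferating cells. It was negative on 6 of 6 arrays like the brightest probe, smaller in size on each, and followed the same order among the arrays within each condition. Its means were -0.87 ± 0.22 (SD, n = 2; adjusted p = 0.146 over all 25729 probes tested by limma) and -0.99 ± 0.58 (SD, n = 4; adjusted p = 0.0766), while in that fit over probes the brightest probe had 0.0805 and 0.0490. The remaining probe (chr2:105534728-105535579) was not well above background in either channel of any array. Averaging the 3 probes gave log2 ratios of -0.77 and -0.89.

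**Figure D2:**
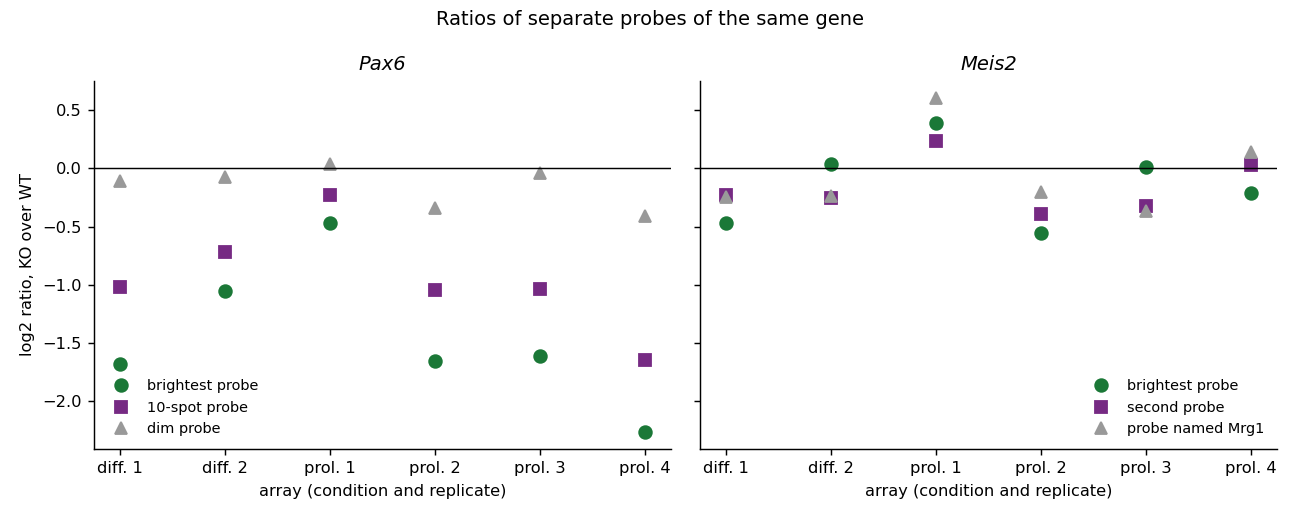
Log2 KO over WT ratio (y axis) of each probe of Pax6 (left panel) and Meis2 (right panel) on the 6 arrays (x axis, condition and replicate). The Pax6 brightest and 10-spot probes are below 0 on every array and the dim probe, never well above background, stays between -0.41 and 0.04; the Meis2 probes lie on both sides of 0.

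Dlx2 and Dlx1, neighbouring homeobox genes of GABAergic progenitors and neuroblasts, had less signal in KO RNA on 6 of 6 arrays, but with a wide spread between arrays, and neither passed. In differentiating cells the log2 signals of Dlx2 were 6.31 and 6.65 in KO RNA, not well above background, against 7.69 and 8.65 in WT RNA. Proliferating cells had 6.94, 6.22, 6.85 and 8.43 in KO RNA, against 7.02, 7.61, 9.26 and 11.37 in WT RNA. WT cells were brightest on proliferating replicates 4 and 3, where KO cells had less by log2 ratios of -2.94 and -2.41, while replicate 1 had nearly equal channels at -0.08.

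Dlx2 was estimated 3.22-fold lower in differentiating KO cells, without passing (adjusted p = 0.271 by limma, 95% interval of the log2 ratio -3.32 to -0.05). Its KO signals there were not well above background. They still lay above the lowest KO signals of any gene that were (5.89 and 5.47 on replicates 1 and 2). A bound set at those lowest signals therefore equals the plain estimate. In proliferating cells its mean log2 ratio was -1.70 ± 1.26 (SD, n = 4; adjusted p = 0.172). That mean is as low as that of Sp8, with a standard error of 0.46, against 0.14 for Sp8. The Dlx2 probe lies at chr2:71387206-71387265 (mm7, minus strand).

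Dlx1 had log2 signals of 6.22 and 7.05 in differentiating KO cells, against 7.26 and 10.19 in WT cells. Proliferating cells had 6.20, 6.07, 6.21 and 7.08 in KO RNA, against 6.29, 6.46, 7.41 and 9.69 in WT RNA. On proliferating replicates 1 and 2 neither channel was well above background, so only replicates 3 and 4, with ratios of -1.20 and -2.61, measured it. KO RNA gave a signal well above background on 1 of 2 differentiating and 1 of 4 proliferating arrays. The mean log2 ratio was -2.09 ± 1.48 in differentiating cells (SD, n = 2; adjusted p = 0.229 by limma) and -1.07 ± 1.13 in proliferating cells (SD, n = 4; adjusted p = 0.390). The Dlx1 probe lies at chr2:71377152-71377211 (mm7, plus strand).

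The size of both Dlx differences in proliferating cells rests on replicates 3 and 4. Without these arrays the mean log2 ratio was -0.73 for Dlx2 and -0.24 for Dlx1, against -1.76 for Sp8 and -1.06 for Pax6. These are the arrays with unequal Xist and Ddx3y given above. Replicate 4 further had a summed signal of 8 cell cycle genes of 36116 in KO and 24382 in WT RNA, against 83807 to 94300 in KO and 70288 to 81301 in WT RNA on replicates 1 to 3. The part of these differences in the Dlx ratios was not tested. In differentiating cells, where Xist was not well above background and Ddx3y had ratios of -0.05 and 0.27, the ratios of Dlx2 were -1.38 and -2.002 and those of Dlx1 were -1.05 and -3.14. With Agilent's processed signals they averaged -3.65 for Dlx2 (adjusted p = 0.0641) and -4.15 for Dlx1 (adjusted p = 0.0477) in differentiating cells, and -2.64 and -2.23 in proliferating cells.

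Dlx5, which acts later than Dlx1 and Dlx2 in maturing GABAergic neurons, was detected after mitogen withdrawal and not before. In differentiating cells its log2 signals were 6.68 and 7.47 in KO RNA, the first not well above background, against 7.12 and 7.70 in WT RNA. In proliferating cells they lay between 6.22 and 6.34 in KO RNA and between 6.15 and 6.44 in WT RNA, with neither well above background on any array. The mean log2 ratio in differentiating cells was -0.34 ± 0.15 (SD, n = 2; adjusted p = 0.144 by limma), with 95% limits of -0.57 and -0.10. Agilent's processed signals gave -0.89 (adjusted p = 0.0421 by limma). On differentiating replicate 1 only WT RNA was well above background. Dlx5 thus met the filter of 2 arrays through WT RNA, and the filter favoured a lower ratio. The Dlx5 probe lies at chr6:6830949-6831008 (mm7, minus strand). Of the other Dlx genes (Dlx3, Dlx4 and Dlx6), 2 were on the array and neither was bright enough to be tested.

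Gsx1, the earliest of these factors in the ventral progenitor sequence, did not share the direction of Sp8 and Pax6 in proliferating cells. In differentiating cells its log2 signals were 9.08 and 8.86 in KO RNA, against 9.76 and 9.09 in WT RNA. In proliferating cells they were 8.54, 8.99, 10.20 and 9.23 in KO RNA, against 8.96, 8.49, 9.08 and 8.502 in WT RNA. KO was the higher channel on proliferating replicates 2, 3 and 4 and the lower on replicate 1 and on both differentiating arrays. The mean log2 ratio was -0.45 ± 0.32 in differentiating cells (SD, n = 2; adjusted p = 0.613 by limma) and 0.48 ± 0.65 in proliferating cells (SD, n = 4; adjusted p = 0.428). Without proliferating replicate 1 limma's proliferating log2 ratio, fitted with the dye term, was 0.86 (adjusted p = 0.0434). The Gsx1 probe lies at chr5:146085054-146085113 (mm7, plus strand).

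Meis2, a TALE homeobox cofactor that works with Pax6 and Dlx proteins in olfactory neuroblasts, was bright in every sample and moved little. In differentiating cells its log2 signals were 11.99 and 12.74 in KO RNA, against 12.46 and 12.71 in WT RNA. Proliferating cells had 13.29, 12.45, 12.34 and 12.88 in KO RNA, against 12.90, 13.01, 12.32 and 13.09 in WT RNA. The genotypes overlapped in both conditions. The mean log2 ratio was -0.22 ± 0.36 in differentiating cells (SD, n = 2; adjusted p = 0.4999 by limma; 95% interval -0.56 to 0.12) and -0.09 ± 0.40 in proliferating cells (SD, n = 4; adjusted p = 0.723; 95% interval -0.33 to 0.15). The probe used lies at chr2:115604242-115604301 (mm7, minus strand). The second probe, at chr2:115604178-115604237, had mean ratios of -0.24 and -0.11. A further probe named Mrg1 in the files, at chr2:115736940-115736999, is not tied to Meis2 by accession and was left out of the 7 genes; its means were -0.24 and 0.05.

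**Figure D3:**
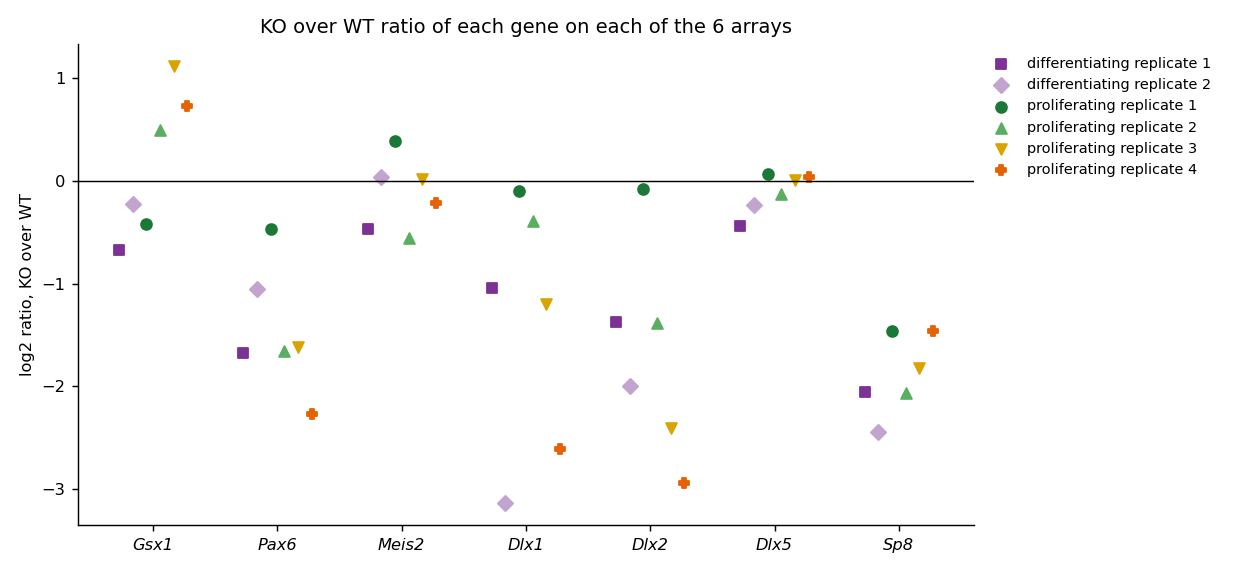
Log2 ratio of KO over WT (y axis) of each of the 7 genes (x axis) on the 2 differentiating and 4 proliferating arrays, 1 symbol per array. Sp8 lies between -2.45 and -1.46 on all 6 arrays, Dlx1 and Dlx2 spread from near 0 to about -3, and Gsx1, Meis2 and Dlx5 lie on both sides of 0.

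The 7 genes thus fell into unlike patterns. Of the 7, 1 (Sp8) was called lower in each condition and none was called higher. Of all genes 3.08% were called in differentiating KO cells, 2.18% as higher and 0.902% as lower, and 0.952% in proliferating KO cells, 0.615% as higher and 0.338% as lower. The median log2 ratio of the 7 was -1.36 in differentiating and -1.07 in proliferating cells, beside -0.01 over all genes tested in each. Dlx1, Dlx2, Sp8 and Pax6 had negative ratios on all 6 arrays, which 4.06% of genes did. For Dlx1 neither channel was well above background on proliferating replicates 1 and 2, so its sign there carries little weight.

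Whether the KO effect differed between the conditions was tested by the difference of the log2 ratios, differentiating minus proliferating. It was -0.55 for Sp8 (adjusted p = 0.447 by limma, 95% interval -1.13 to 0.04), 0.14 for Pax6 (adjusted p = 0.936, -0.76 to 1.03), -1.02 for Dlx1 (adjusted p = 0.739, -3.27 to 1.23) and 0.01 for Dlx2 (adjusted p = 0.998, -1.99 to 2.02). It was -0.34 for Dlx5 (adjusted p = 0.343), -0.93 for Gsx1 (adjusted p = 0.492) and -0.13 for Meis2 (adjusted p = 0.841). None passed; of all genes 0.0498% did, 0.0332% with a higher and 0.0166% with a lower difference, and the intervals of Dlx1 and Dlx2 leave room for large differences either way.

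After mitogen withdrawal Dlx5 was called higher in both genotypes, but it had entered the test through the 2 differentiating arrays alone, so the filter on dim probes favoured this direction. Its log2 change was 0.78 in KO cells (adjusted p = 0.0279 by limma), where 1 of 2 differentiating and none of 4 proliferating arrays measured it. In WT cells, measured on both differentiating arrays and on no proliferating array, it was estimated 2.17-fold higher (adjusted p = 0.00753 by limma). Without the filter, over 28765 gene names, adjusted p by limma was 0.0280 and 0.00758. Of all genes 15.2% were called in KO cells (9.14% higher and 6.09% lower) and 14.9% in WT cells (9.01% higher and 5.89% lower). The call ended without differentiating replicate 2 (adjusted p = 0.275 in KO and 0.0560 in WT cells) and without proliferating replicate 1 (0.122 and 0.0529), and in KO cells also without proliferating replicate 2 (0.103) or 3 (0.0991). No other member passed in either genotype. Sp8 changed by a log2 of 0.20 in KO cells (95% interval -1.13 to 1.53) and 0.75 in WT cells (-0.58 to 2.07), and Dlx1 by 0.25 (-2.39 to 2.88) and 1.26 (-1.37 to 3.899). Pax6 changed by 0.50 in KO and 0.36 in WT cells, Meis2 by -0.38 and -0.25, Gsx1 by -0.27 and 0.66, and Dlx2 by -0.63 and -0.65.

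The order of the 4 group means follows from these values. For Sp8 it was differentiating WT (9.73), proliferating WT (8.99), differentiating KO (7.48) and proliferating KO (7.29), and for Pax6 it was the same (10.88, 10.52, 9.52 and 9.02). Neighbours of the same genotype did not differ beyond their spread for either gene. For Dlx2 proliferating WT was highest (8.82), then differentiating WT (8.17), proliferating KO (7.11) and differentiating KO (6.48). For Dlx1 differentiating WT was highest (8.73), then proliferating WT (7.46), differentiating KO (6.64) and proliferating KO (6.39). For both Dlx genes the KO and WT signals overlapped in proliferating cells and not in differentiating cells. Of all genes 15.1% had KO below WT without overlap in differentiating cells, against 0.715% in proliferating cells. Differentiating cells had fewer arrays, so this contrast between the conditions does not show a difference in KO effect. The Dlx2 KO signals in differentiating cells were also not well above background.

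**Figure D4:**
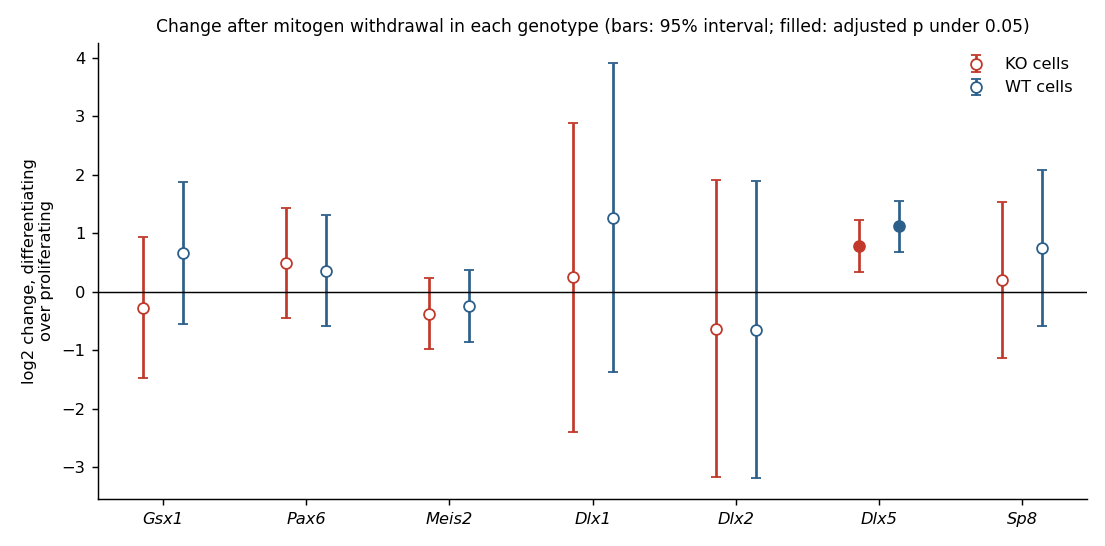
Log2 change after mitogen withdrawal (y axis, differentiating over proliferating) of each gene in KO cells (left point) and WT cells (right point), with 95% intervals from limma's separate-channel fit. Filled points passed; these are Dlx5 in both genotypes, and the intervals of the other 6 genes include 0.

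The wider set of olfactory lineage genes was described by lists. Over all genes tested, 2.18% were called higher and 0.902% lower in differentiating KO cells. The shares in proliferating KO cells were 0.615% and 0.338%, and the list counts below are to be read beside these. Of 16 tested transcription factors of the ganglionic eminences and the olfactory lineage, none rose and 2 fell in differentiating KO cells, with a median log2 ratio of -0.34, and none passed in proliferating cells, with a median of -0.17. Bcl11b, a zinc finger factor of postmitotic GABAergic and projection neurons, had log2 signals of 6.84 and 6.92 in differentiating KO cells, against 8.37 on both arrays in WT cells (log2 ratio -1.49, adjusted p = 0.0158 by limma). In proliferating cells its ratio was positive on 4 of 4 arrays, at a mean of 0.50 (adjusted p = 0.111). Etv1, an ETS factor of dopaminergic olfactory neurons, had -1.57 in differentiating cells (adjusted p = 0.0850) and -0.16 in proliferating cells, with 2 arrays of each sign. In proliferating cells Zic1, a zinc finger factor of septal and periglomerular lineages, had -3.04 (adjusted p = 0.119 by limma). Its ratios were -1.17, -2.11, -4.85 and -4.03 on replicates 1 to 4. In differentiating cells they were -3.60 and -2.30, at a mean of -2.95, which did not pass either.

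Of 10 tested transmitter and calcium-binding genes, 1 rose and 1 fell in differentiating KO cells and none passed in proliferating cells. Slc32a1, the vesicular GABA transporter, fell with a log2 ratio of -1.62 ± 0.67 (SD, n = 2; adjusted p = 0.0284 by limma); in KO RNA it was detected well above background on 1 of 2 arrays. Gad1, which makes GABA, had log2 signals of 6.78 and 6.57 in KO RNA, not well above background, against 9.59 and 9.15 in WT RNA. It was estimated 6.46-fold lower from these dim KO signals but did not pass (adjusted p = 0.0715 by limma). Ddc, the decarboxylase that completes dopamine synthesis, rose by 2.55 ± 0.28 (SD, n = 2; adjusted p = 0.0325), and its ratio was positive on all 4 proliferating arrays too (1.30, adjusted p = 0.0999). In proliferating cells Gad1 had -1.03 (adjusted p = 0.294 by limma) and Reln, a secreted glycoprotein that guides migration, -1.15 (adjusted p = 0.238). The Reln ratios were -2.79, -0.41, -0.48 and -0.92 on proliferating replicates 1 to 4. On the differentiating arrays they were positive, at 0.75 and 0.69. Gad1, like Dlx1, was above background on proliferating replicates 3 and 4 only, with ratios of -1.72 and -2.15.

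Of 16 tested neuroblast and migration genes, 2 fell in differentiating KO cells (median -0.40) and 1 fell in proliferating KO cells (median 0.02). Tubb3, the tubulin of young neurons, fell with -1.56 (adjusted p = 0.0147 by limma), and Cd24a, a surface protein of neuroblasts, with -1.07 (adjusted p = 0.0448). In differentiating cells Robo1, a receptor for Slit guidance cues, had 0.88 (adjusted p = 0.0522). Robo2, another Slit receptor, fell in proliferating cells with -0.76 ± 0.07 (SD, n = 4; adjusted p = 0.0202), and KO RNA gave a signal above background on 2 of 4 arrays. Cxcr4, a chemokine receptor of migrating cells, had 0.36 there (adjusted p = 0.113). Of 5 tested dorsal lineage factors, which make glutamatergic neurons, 2 fell in differentiating KO cells. These were Neurod2, with -0.60 (adjusted p = 0.0338 by limma), and Neurog2, estimated 1.81-fold lower (adjusted p = 0.0449). Neurog2 was not well above background in KO RNA on any array, so it entered the test through WT RNA alone and the filter favoured its direction. In proliferating cells Emx2, a homeobox factor of dorsal progenitors, had 0.50 (adjusted p = 0.296).

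Markers of other cell types moved at the same time. Of 16 oligodendroglial markers, 7 rose in differentiating KO cells (median log2 ratio 2.12) and 4 in proliferating KO cells (median 1.32). None fell in either condition. Among all genes tested 2.18% and 0.615% were called higher. The summed signal of the 16 markers in differentiating cells was 265147 and 212860 in KO RNA, against 94417 and 74220 in WT RNA. On proliferating replicates 1 to 4 it was 74925, 115628, 75662 and 174240 in KO RNA. WT RNA of these arrays had 59357, 60996, 79209 and 54078, so that KO was the lower on replicate 3. Sox10, a transcription factor of this lineage, had ratios of 2.15 and 2.23 in differentiating and 1.73 to 2.76 in proliferating cells. Olig2, Pdgfra and Olig1, which mark the progenitors of this lineage, had -0.70, -0.38 and -0.34 in differentiating cells (adjusted p = 0.0777, 0.843 and 0.623), while 13 of the 16 were positive. Of 12 astroglial markers 3 rose in differentiating KO cells (median 0.73) and none passed in proliferating cells (median 0.33), with Aqp4, a water channel of astrocytes, at 2.91 (adjusted p = 0.00771 by limma) in differentiating cells. In those cells 4 of the 12 had negative ratios, down to -1.16 for Fgfr3, a growth factor receptor (adjusted p = 0.0515). In differentiating KO cells 6 of 8 cell cycle genes rose (median 1.17), and of 9 stem cell markers Prom1 rose (1.93, adjusted p = 0.0220). The stem cell markers had a median of -0.25 there, and 7 of the 9 were negative, with Nes at -0.61 (adjusted p = 0.0635). Of 7 microglial markers 1, Cd68, was bright enough to be tested, at ratios of 0.05 and -0.03. In RNA of whole cultures, fewer cells of a type and less RNA per cell cannot be told apart, and the part of these markers in the ratios of the 7 factors was not tested.

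**Figure D5:**
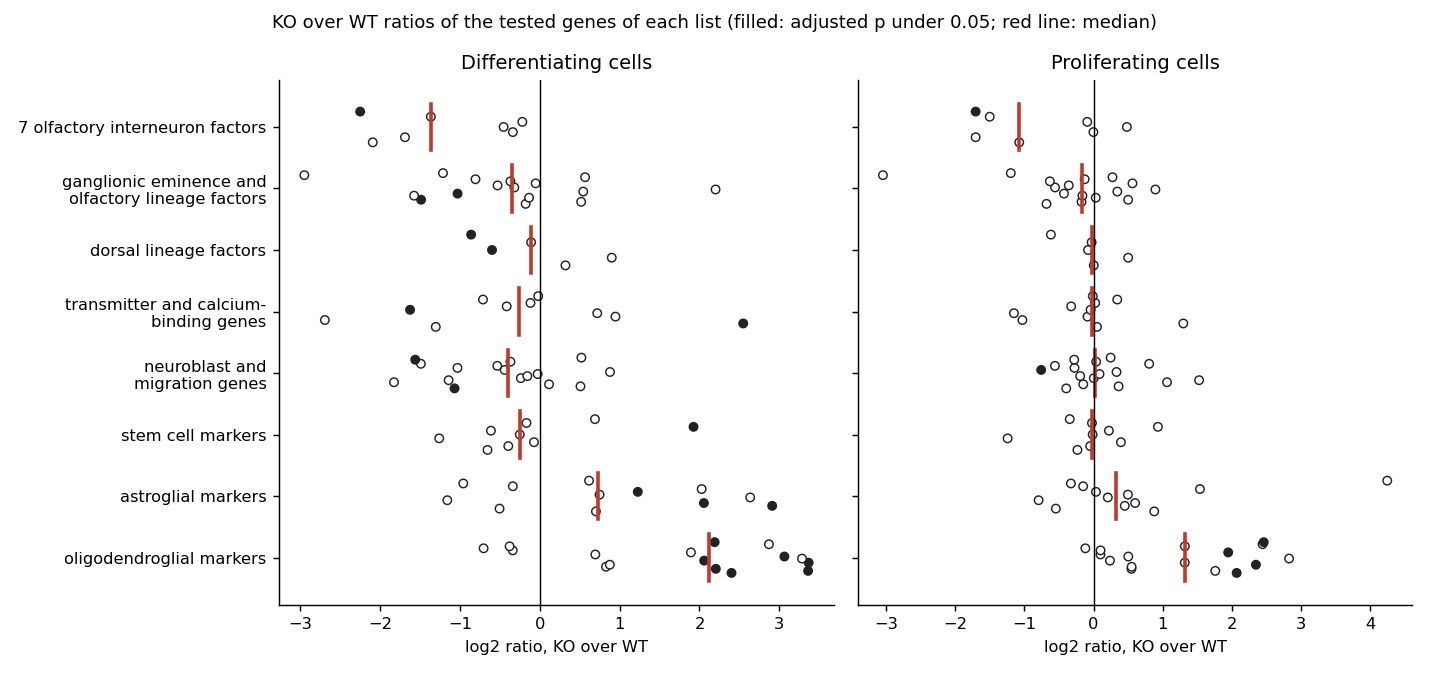
Log2 ratio of KO over WT (x axis) of each tested gene of 8 lists (rows) in differentiating cells (left panel) and proliferating cells (right panel). Filled points passed and red lines are medians, which lie at -1.36 and -1.07 for the 7 factors and at 2.12 and 1.32 for the oligodendroglial markers.

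Among the 18049 other genes, those whose log2 signal was most like that of each factor over the 12 channels were listed by Pearson's r, as a description. The channels share 6 arrays, so they are not 12 independent samples. For Sp8 they were Robo2 (r = 0.91, but -0.42 over the 6 log2 ratios of KO over WT), Dmrta2, a doublesex-type factor of the forebrain (0.89), and Auts2 (0.87). For Pax6 they were 3222401L13Rik (0.94), Cdkn1b, a cyclin-dependent kinase inhibitor (0.91), and Sgce (0.89). For Dlx2 they were Spcs2 (0.95), Slc35f3 (0.93) and Prox1, a homeobox factor of the same lineage list (0.92), and for Dlx1 they were Usp8 (0.90), Maco1 (0.90) and 6620401J10Rik (0.88). Nefl, a neurofilament gene, was among those of Gsx1 (0.87), and Chd7, a chromatin remodeller, among those of Meis2 (0.92). Among the 21 pairs of the 7 factors the highest r was that of Dlx1 with Dlx2 (0.79), then Sp8 with Pax6 (0.72), and the lowest that of Gsx1 with Meis2 (-0.61). Over the 6 log2 ratios the order was another, with Dlx2 and Pax6 highest (0.80), Dlx1 with Dlx2 at 0.73 and Sp8 with Pax6 at -0.08.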

How the data were processed

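RNA of KO and WT cells was hybridised together on 6 Agilent arrays (design 014868), 500 ng of total RNA per label, per the labels. The deposited spot intensity values are what Agilent Feature Extraction 9.5.1.1 wrote for each scan, per the file headers, with probe positions on build mm7. The authors' deposited value table holds log10 ratios, rescaled to log2 and used as an alternative only.

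Mean signals were corrected with limma 3.58.1 in R 4.3.3 (normexp on mean signal and median background, offset 50, which draws ratios of dim spots toward 0) and normalized by loess within each array. Left out were 1639 control spots on each array and 859 gene spots marked as outliers; repeat spots were averaged. The probe with the highest mean intensity stood for a gene. A gene was tested if its probe was well above background on 2 or more of 6 arrays, in either channel.

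The 6 arrays were fitted together on log2 KO over WT ratios (lmFit, eBayes), with a coefficient for each condition and one for the dye; 3 residual degrees of freedom limit the precision. For changes after mitogen withdrawal, Aquantile-normalized channels of 18050 genes were fitted separately by lmscFit (statmod 1.5.0, data.table version 1.17.8). Tests are 2-sided. The procedures were tested on simulated data.

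The 7 genes and the lists were chosen with earlier results of these data known. The text names every probe of the 7 genes, Dnmt3a, Xist and Ddx3y, list genes that passed or had the 2 smallest p-values per list and comparison, up to 3 markers of each other cell type, and genes of highest correlation; genes known only by an accession are not named, and some genes of the lists are not reported here. Sox2 and Nes are named as checks, and Zic1, Etv1, Robo1 and Gad1 were singled out after their values were seen. Alternatives covered background correction, normalization, filter, probe choice, dye term, weights, the deposited table, arrays left out and a replicate block.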

Additional observations from a re-analysis of the deposited data

Results flagged for a closer look

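Dlx1 had a log2 signal of 7.08 in KO RNA of proliferating replicate 4, far from the other 3 proliferating KO signals of 6.20, 6.07 and 6.21, none of which was well above background. The gap to the nearest was 0.86 of the whole range, past Dixon's 95% critical value for 4 samples. It was 1 of 21 groups of values examined, and chance alone marks about 1 in 20 such groups. On the same array Dlx1 in WT RNA (9.69) and Dlx2 in KO (8.43) and WT RNA (11.37) were each the highest of their 4 proliferating signals.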

How the results depend on the processing

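Dlx1, Dlx2, Sp8, Pax6 and Meis2 kept a negative log2 ratio in both conditions under all 18 alternatives; Gsx1 kept its positive ratio in proliferating cells, and Dlx5, at 0 there, ranged between -0.047 and 0.026 with 1 array left out. The slide as a block was not run, since each condition lies on 1 slide of its own. The number of genes called in differentiating cells (557) became 285 with median centring, 1586 with the condition fitted alone, 2112 with array weights and 970 without proliferating replicates 3 and 4, and with 1 array left out it lay between 0 and 534. In proliferating cells (172) it became 278 with Agilent's processed signals, 270 with the deposited table, 101 without the filter, 0 with the condition fitted alone, and 0 to 171 with 1 array left out. For the difference (9) it became 72 with processed signals, 81 with the deposited table, 153 with array weights, 24 without the dye term, 4 with all probes averaged, and 0 with median centring, without the filter, without any 1 array, or without replicates 3 and 4. Members called lower in differentiating cells (1) became 3 with processed signals, the deposited table or array weights, 4 with the condition fitted alone, 2 without proliferating replicates 3 and 4, and 0 to 2 with 1 array left out; in proliferating cells (1) they became 2 with processed signals, the deposited table, array weights or the probe filter by the majority of spots (chosen after seeing the data), 0 with the condition fitted alone, and 0 to 2 with 1 array left out, where 0 to 1 were called higher. With 1 array left out, genes called after mitogen withdrawal lay between 293 and 4718 in KO and 209 and 3823 in WT cells, and members called higher between 0 and 1 in each; in leave-one-out fits a lone differentiating array is assumed to vary like the others.

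The labels state no pairing of arrays with the same number across the conditions. The deviations of proliferating and differentiating replicates 1 correlated at -0.37 and those of replicates 2 at -0.29, and these pairs were of opposite dye orientation. The deviations of 2 differentiating arrays mirror each other, so the crossed pairs gave 0.37 and 0.29. These values cannot decide whether the cultures were paired. With the replicate block as a fixed term and no dye term, 558 genes in differentiating cells, 426 in proliferating cells and 0 for the difference were called, with 3 and 4 members called lower; as a random block, 573, 184 and 19, with 1 and 2 members.

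The difference of KO effects for Dlx2, 0.01, turned to -1.01 with processed signals and with the deposited table, -0.0026 with median centring, -0.95 without replicates 3 and 4 and with the fixed block, and -0.036 with the random block; with 1 array left out it lay between -0.76 and 0.79. That for Pax6 turned to -0.30 without replicates 3 and 4 and with the fixed block and lay between -0.089 and 0.40 with 1 array left out, and that for Dlx1 between -2.49 and 0.45. After withdrawal, with 1 array left out, the WT change lay between -0.41 and 2.998 for Dlx1, between -1.37 and 0.22 for Dlx2 and between -0.52 and 0.024 for Meis2; the KO change lay between -0.23 and 0.66 for Sp8, which had -0.0064 with quantile normalization, and between -0.55 and 0.075 for Gsx1. None of these values passed, and the cause was not tested. Dlx1, Dlx2 and Dlx5 are limited by signal over background.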
